A study of Mus musculus with 18 samples.

Results

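The genes described here are 10 of the 18585 genes measured in mouse forepaws: the cyclooxygenases Ptgs1 and Ptgs2, the prostanoid synthases Ptges, Ptgis and Ptgds, and the leukotriene genes Alox5, Alox5ap, Lta4h, Ltc4s and Ltb4r1. They were chosen by symbol, as enzymes of eicosanoid synthesis with the receptor for leukotriene B4, and all 10 were found. RNA was profiled by CEL-seq, which barcodes each sample during reverse transcription and counts tags near the 3' end of transcripts. All animals were C57BL/6 mice. The groups were wild type (WT) control with 4 libraries, Sema3b-/- control with 4, WT with arthritis with 5 and Sema3b-/- with arthritis with 5. Sema3b encodes a secreted class 3 semaphorin, and the labels give neither the arthritis model, the age nor the sex of the animals, nor which part of Sema3b was removed. A whole forepaw holds bone, cartilage, synovium, muscle, skin and marrow, so each value is a mixture of many cell types.

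Both pathways begin with arachidonic acid, which phospholipases release from membranes. The cyclooxygenases turn it into prostaglandin H2; Ptgs1 is present in many resting tissues, while Ptgs2 is induced by inflammatory signals and is the target that anti-inflammatory drugs of the coxib type were made for. Synthases then make individual prostanoids from it: Ptges makes prostaglandin E2, a mediator of joint pain and swelling, Ptgis makes prostacyclin, which widens vessels and restrains platelets, and Ptgds makes prostaglandin D2. In the other branch, Alox5ap presents arachidonic acid to the lipoxygenase Alox5, which makes leukotriene A4. Lta4h converts this into leukotriene B4, a strong attractant of neutrophils that acts through the receptor Ltb4r1, and Ltc4s converts it into leukotriene C4, the first of the cysteinyl leukotrienes.

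The promoters of the cyclooxygenase pair are shown because Ptgs2 was higher and Ptgs1 lower with arthritis, as given below for each library. The sequences are from RefSeq (GRCm38.p6, which is mm10) and run from 250 bases before the annotated start to 25 bases from it, chr1:150099781-150100055 for Ptgs2 and chr2:36230176-36230450 for Ptgs1, both on the plus strand. Capitals mark motif matches.
Ptgs2: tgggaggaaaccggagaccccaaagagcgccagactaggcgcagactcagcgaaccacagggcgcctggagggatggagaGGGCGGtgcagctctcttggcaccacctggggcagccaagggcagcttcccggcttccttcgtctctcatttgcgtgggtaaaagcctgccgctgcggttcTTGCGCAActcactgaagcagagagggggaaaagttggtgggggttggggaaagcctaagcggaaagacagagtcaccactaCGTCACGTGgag
Ptgs1: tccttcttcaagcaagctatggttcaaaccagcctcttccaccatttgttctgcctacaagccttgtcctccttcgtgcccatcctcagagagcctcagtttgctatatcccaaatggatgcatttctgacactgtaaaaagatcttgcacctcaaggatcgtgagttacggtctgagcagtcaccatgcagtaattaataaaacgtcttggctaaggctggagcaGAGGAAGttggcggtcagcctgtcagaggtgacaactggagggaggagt

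The motifs searched, on both strands of 300 bases that reach 50 bases from the start, were TATAAA, the cyclic AMP element TGACGTCA and its core TGACG, the AP-1 motif TGANTCA, the kappaB consensus, the E-box CACGTG, the GC box GGGCGG, the PU.1 motif GAGGAAG and the C/EBP motif TTGCNNAA. With the annotated start counted as 0, the Ptgs2 stretch held GGGCGG at -170 to -165, TTGCGCAA, a match to TTGCNNAA, at -69 to -62, and CGTCA, which is TGACG on the minus strand, at 13 to 17. CACGTG at 16 to 21 overlapped the last of these. The Ptgs1 stretch held GAGGAAG alone, at -24 to -18. Of 32851 RefSeq promoters of that length, 35.7% held GGGCGG, 20.8% TGACG, 13.6% GAGGAAG, 10.8% TTGCNNAA and 7.15% CACGTG. Of the rest, TATAAA (13.6%), TGACGTCA (1.79%), TGANTCA (7.81%) and the kappaB consensus (4.51%) were in neither of the 2 windows. RefSeq entries were matched for 8 of the 10 genes, all but Ptgis and Alox5ap. Among the other 6, Ptgds held TGACTCA at -35 to -29 and a match to the kappaB consensus at -22 to -13, Ptges held GGGCGG 2 times, and Alox5 and Ltb4r1 each held it once. GAGGAAG was found once at Ltc4s and 2 times at Ltb4r1, and no motif searched was found at Lta4h. Each match describes letters in a window. Gene positions given from here on are those of the GENCODE annotation of mm10.

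Sequencing depth ran from 1732783 reads, in Sema3b-/- control replicate 1, up to 19464892, in replicate 2 of WT arthritis. Sema3b was at 44.4 to 55.9 normalized counts on average in the WT groups and at 1.29 to 2.95 in the Sema3b-/- groups. Sex, read from Xist and Y-linked genes, was female in all 4 WT control libraries but male in 4 of the 5 WT arthritis libraries, all but replicate 1. Sema3b-/- control had 2 of each and Sema3b-/- arthritis 4 females and 1 male. All control titles begin with MI and 7 arthritis titles with Joint, while the other 3 (WT replicate 5 and Sema3b-/- replicates 1 and 2) begin with the animal's name, so whatever these words stand for and arthritis cannot be told apart. Mitochondrial genes gave 11.3% to 23.2% of the reads in 17 libraries and 32.5% in WT arthritis replicate 1. The labels do not state outright that libraries are separate animals, and p-values measure the spread between libraries.

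With arthritis, Ptgs2 and Alox5ap were higher and Ptgis was lower. A gene was tested where its normalized count (reads divided by a size factor of the library) was at least 10 in at least 4 libraries, which 13809 genes passed. Among them were 9 of the 10 genes, all but Ptgds, and a call was an adjusted p under 0.05 in limma over all 13809. In WT forepaws 2 of the 9 rose with arthritis, Ptgs2 and Alox5ap, and none fell, where 4.21% of all genes tested were called (2.64% higher and 1.58% lower). In Sema3b-/- forepaws 1 rose, Alox5ap, and 1 fell, Ptgis, where 12.4% of all genes were called (6.84% higher and 5.55% lower), and with 1 of 9 each way nothing is read from the count. For the mean of the arthritis effects in both genotypes, 3 of the 9 rose (Ptgs2, Alox5ap and Lta4h) and 2 fell (Ptgis and Ptgs1), where 23.5% of all genes were called (12.6% higher and 10.9% lower). The median log2 fold change of the 9 was 0.12 in WT, 0.29 in Sema3b-/- and 0.20 for the mean effect, beside -0.02, -0.01 and -0.01 over all genes tested. In whole paws, fewer cells of a type and less RNA per cell cannot be told apart.

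**Figure D1:**
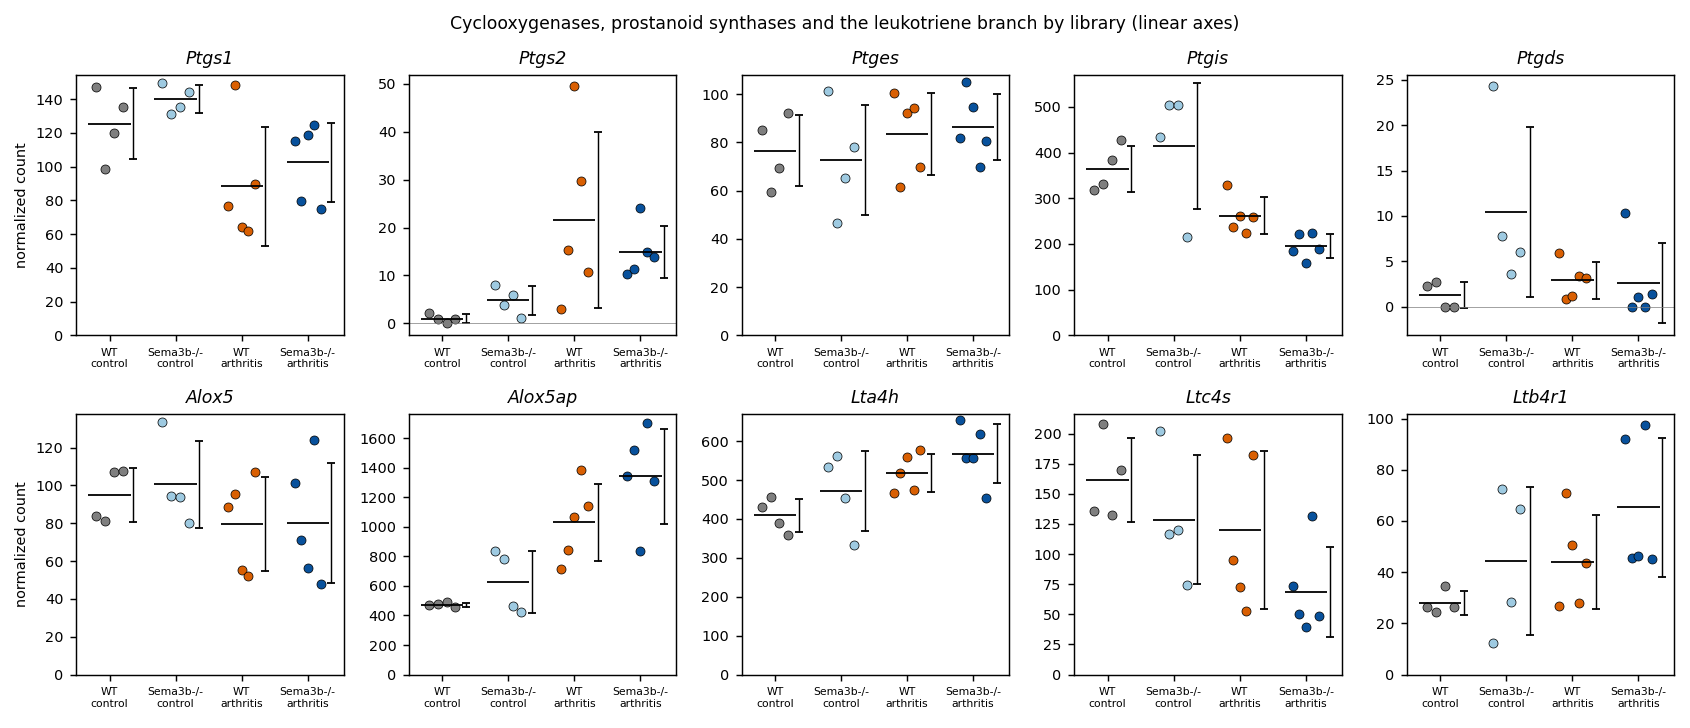
Normalized count of each of the 10 genes (vertical axes, linear, one scale per gene) in each of the 18 libraries, by group (horizontal axes); points are libraries, horizontal lines are group means and bars are SD. Alox5ap lay at 454 to 488 in WT control and at 716 to 1383 in WT arthritis, and Ptgs2 lay at 0 to 2.21 in WT control and at 2.96 to 49.4 in WT arthritis.

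Ptgs2 (chromosome 1, 150100031 to 150108227, plus strand), the inducible cyclooxygenase, was scarce in control paws and higher in arthritic ones. In WT control it was at 2.21, 0.902, 0 and 0.853 normalized counts in replicates 1 to 4, from 0 to 2 reads per library and 4 reads in all, and in WT arthritis at 2.96, 15.3, 49.4, 29.8 and 10.8 in replicates 1 to 5, from 132 reads in all. All 5 WT arthritis libraries were above all 4 controls, with replicate 1, the only female of the group, at the bottom and replicate 3 at the top. The means were 0.991 ± 0.912 (SD, n = 4) and 21.6 ± 18.3 (SD, n = 5), a ratio of 21.8. The log2 fold change, on values with 1 added, was 3.16 (SE 0.65, limma adjusted p = 0.0125). It was 1.87 with 5 added in place of 1 and 4.50 in DESeq2 (adjusted p = 0.0213 in limma and 0.00012 in DESeq2). Without replicate 1 of WT arthritis, which also had the highest mitochondrial share, it was 3.67 (limma adjusted p = 0.00341). The call ended with sex as a term (log2 fold change 2.42, limma adjusted p = 0.142) and without WT control replicate 3, which had 0 reads (2.87, limma adjusted p = 0.0554).

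In Sema3b-/- control Ptgs2 was at 8.09, 3.91, 5.94 and 1.20 normalized counts, from 15 reads in all, and in Sema3b-/- arthritis at 10.4, 11.4, 24.1, 14.8 and 13.9, from 81 reads. Again every arthritis library was above every control. The means were 4.78 ± 2.94 (SD, n = 4) and 14.9 ± 5.46 (SD, n = 5), a ratio of 3.12, and the log2 fold change of 1.58 (SE 0.65) did not pass the test (limma adjusted p = 0.117, with a log2 fold change of 1.04 with 5 added). Ptgs2 was the 1 gene of the 9 whose Sema3b-/- groups did not overlap upwards, where 7.13% of all genes tested did so. Within sex, the 4 female Sema3b-/- arthritis libraries were at 10.4 to 24.1 and the 2 female Sema3b-/- controls at 1.20 and 8.09. Over both genotypes, the 5 male arthritis libraries were at 10.8 to 49.4 and the 2 male controls, both Sema3b-/-, at 3.91 and 5.94. For the mean effect the log2 fold change was 2.37 (SE 0.46, limma adjusted p = 0.00167).

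Ptgs1 (chromosome 2, 36230426 to 36252272, plus strand), the constitutive cyclooxygenase, fell in the mean over both genotypes but in neither one alone. It was at 147, 98.4, 120.1 and 136 normalized counts in WT control and at 76.9, 148, 64.4, 62.1 and 89.4 in WT arthritis. WT arthritis replicate 2 was just above the highest control and the other 4 were below all controls. The log2 fold change was -0.56 (SE 0.23, limma adjusted p = 0.169). Without that replicate it was -0.77, which passed the test (limma adjusted p = 0.0243). In Sema3b-/- control Ptgs1 was at 149.7, 131, 135 and 144, and in Sema3b-/- arthritis at 115, 79.6, 119, 125 and 75.0. These groups did not overlap, with every arthritis library lower, where 6.11% of all genes tested did so, yet the log2 fold change of -0.47 (SE 0.23) did not pass the test (limma adjusted p = 0.184). The mean effect, a fall of 0.52 on the log2 scale (SE 0.16, limma adjusted p = 0.0288), passed it. That call ended in edgeR (adjusted p = 0.0531), with sex as a term (limma adjusted p = 0.0605), without the 3 arthritis libraries whose titles do not begin with Joint (0.0827), and without any 1 of 6 libraries: WT control replicate 1 or 4, WT arthritis replicate 3 or 4, or Sema3b-/- arthritis replicate 2 or 5. The gene overlaps Gm43621 on the other strand.

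Within each library, the share of cyclooxygenase reads that came from Ptgs2 does not depend on how libraries were scaled. In controls it was 0% to 1.48% for WT and 0.826% to 5.13% for Sema3b-/-, and in arthritis 3.70% to 43.4% for WT and 8.25% to 16.9% for Sema3b-/-. The highest were WT arthritis replicate 3, at 43.4% (exact 95% binomial interval 33.5% to 53.8%), and WT arthritis replicate 4, at 32.4% (23.7% to 42.1%). WT arthritis replicate 1, at 3.70% (0.452% to 12.7%), was the 1 arthritis library inside the control range. The intervals cover counting error only. These shares compare libraries, not the levels of the enzymes, since tags of 2 genes need not be captured alike.

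**Figure D2:**
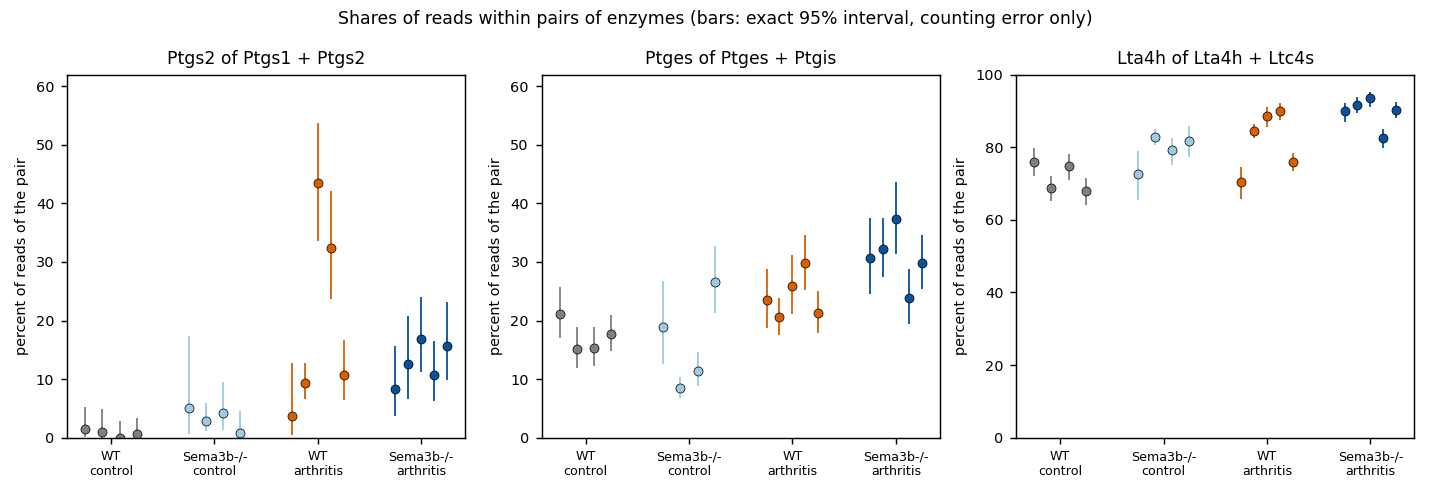
Percent of the reads of a pair of genes that came from the first gene (vertical axes) in each library by group (horizontal axes), with exact 95% binomial intervals. Ptgs2 gave up to 5.13% of cyclooxygenase reads in control libraries and up to 43.4% in arthritis, and Ptges gave 8.43% to 26.6% of the reads of Ptges and Ptgis in Sema3b-/- control and 23.8% to 37.3% in Sema3b-/- arthritis, which overlap.

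Of the prostanoid synthases, prostacyclin synthase fell in Sema3b-/- arthritis while the synthase of prostaglandin E2 did not pass the test anywhere. Ptgis (chromosome 2, 167191805 to 167240604, minus strand) was at 433, 504, 505 and 215 normalized counts in Sema3b-/- control and at 184, 221, 159, 223 and 189.6 in Sema3b-/- arthritis. All 5 arthritis libraries were below 3 of the 4 controls, and control replicate 4 lay among them. The means were 414 ± 137 (SD, n = 4) and 195 ± 27.0 (SD, n = 5), a ratio of 0.472, and the log2 fold change was -1.01 (SE 0.21, limma adjusted p = 0.00578). Ptgis was also called without each of the 18 libraries in turn and with sex as a term. In WT control it was at 317, 332, 383 and 427 and in WT arthritis at 328, 238, 262, 223 and 259, where replicate 1 alone reached the control range. The WT log2 fold change of -0.48 (SE 0.21) did not pass the test (limma adjusted p = 0.194). The mean effect was -0.75 (SE 0.15, limma adjusted p = 0.002). Over both genotypes, the 5 male arthritis libraries, 4 of them WT, were at 189.6 to 262. The 2 male controls, both Sema3b-/-, were at 504 and 505. Female libraries overlapped, with the 5 arthritis libraries at 159 to 328 and the 6 controls at 215 to 433. The gene overlaps the antisense genes 1110018N20Rik and Gm14291, and with no strand setting given in the sources used here, their reads cannot be told apart from those of Ptgis.

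Ptges (chromosome 2, 30889471 to 30929863, minus strand), the inducible synthase of prostaglandin E2 that often acts with Ptgs2, ranged from 46.4 to 105 normalized counts over all 18 libraries. In WT its mean was 76.5 ± 14.8 (SD, n = 4) without and 83.6 ± 17.0 (SD, n = 5) with arthritis, and in Sema3b-/- the means were 72.7 ± 23.0 (SD, n = 4) and 86.3 ± 13.7 (SD, n = 5). The 95% intervals of the log2 fold change with arthritis were -0.35 to 0.59 in WT and -0.18 to 0.76 in Sema3b-/-. A doubling lay outside both in this fit, which has no term for sex. With sex as a term the WT value was 0.45, and its interval is not given here. The log2 ratio of Ptges to Ptgis went, in WT, from a mean of -2.25 ± 0.27 (SD, n = 4) without arthritis to -1.65 ± 0.29 (SD, n = 5) with it. In Sema3b-/- it went from -2.47 ± 0.87 (SD, n = 4) to -1.17 ± 0.33 (SD, n = 5). The Sema3b-/- groups overlapped, from -3.41 to -1.45 in control and from -1.66 to -0.74 in arthritis. Of the 4 group means of this ratio, the highest was in the group with the lowest Ptgis. Ptgis is the denominator, so this adds nothing to the Ptgis values above. Ptges overlaps the pseudogene Gm13400 on its own strand, and reads of the pair could be split by the counting.

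Ptgds (chromosome 2, 25466709 to 25470046, minus strand), the synthase of prostaglandin D2, was near the limit of detection, with 0 to 14 reads per library, and was not tested. For WT it was at 0 to 2.71 normalized counts without arthritis and 0.872 to 5.91 with it, and for Sema3b-/- at 3.56 to 24.3 and 0 to 10.4. In the shallowest library, Sema3b-/- control replicate 1, a count of 0 would allow up to 3 reads, or 12.1 normalized counts, and that library held the highest value, 24.3. With no filter on low values, its log2 fold change between Sema3b-/- and WT controls was 2.31 (limma adjusted p = 0.771), with 28 reads against 5. Every Sema3b-/- control was above every WT control in normalized counts. The nearest pair, Sema3b-/- control replicate 3 at 3.56 and WT control replicate 2 at 2.71, had 3 reads each. The gap between these libraries thus came from their size factors. The share of all genes without overlap in this comparison was not counted.

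In the leukotriene branch the activating protein of the lipoxygenase rose in both genotypes and the lipoxygenase itself did not pass the test. Alox5ap (chromosome 5, 149264767 to 149288153, plus strand) was at 472, 476, 488 and 454 normalized counts in WT control and at 716, 847, 1064, 1383 and 1143 in WT arthritis, with no overlap. The means were 472 ± 13.8 (SD, n = 4) and 1030.4 ± 260.3 (SD, n = 5), a ratio of 2.18, and the log2 fold change was 1.09 (SE 0.23, limma adjusted p = 0.0148). In Sema3b-/- control it was at 838, 779.9, 464 and 423 and in Sema3b-/- arthritis at 1346, 1518, 836, 1701 and 1313. Control replicate 1, at 838, was just above arthritis replicate 3, at 836, and the other 3 controls were below all arthritis libraries. The means were 626 ± 213 (SD, n = 4) and 1343 ± 323 (SD, n = 5), a ratio of 2.14, and the log2 fold change was 1.13 (SE 0.23, limma adjusted p = 0.0056).

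The mean effect on Alox5ap was 1.11 (SE 0.16, limma adjusted p = 0.000235). Without WT arthritis replicate 1 the WT value was 1.21 (limma adjusted p = 0.00713). The WT call ended with sex as a term (log2 fold change 0.93, limma adjusted p = 0.129) and without WT control replicate 3 (1.10, limma adjusted p = 0.0506). Over both genotypes, the 5 female arthritis libraries, 4 of them Sema3b-/-, were at 716 to 1701. The 6 female controls, 4 of them WT, were at 423 to 838. The 5 male arthritis libraries, 4 of them WT, were at 847 to 1383 and the 2 male controls, both Sema3b-/-, at 464 and 779.9. WT had 1 female arthritis library, at 716, and no male control, so the WT effect within sex rests on that library. With the 3 arthritis libraries whose titles do not begin with Joint left out, the log2 fold change was 1.04 in each genotype (limma adjusted p = 0.0574 in WT and 0.057 in Sema3b-/-). The gene overlaps the antisense genes Gm19719 and n-R5s180.

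Alox5 (chromosome 6, 116410077 to 116461178, minus strand), the lipoxygenase that Alox5ap serves, ranged from 80.3 to 134 normalized counts over the 8 control libraries and from 47.9 to 124 over the 10 arthritis libraries. In 2 WT arthritis libraries (replicates 3 and 4) and 3 Sema3b-/- arthritis libraries (replicates 2, 3 and 5) it lay below every control. The log2 fold change was -0.30 (SE 0.28, limma adjusted p = 0.558) in WT and -0.39 (SE 0.28, limma adjusted p = 0.375) in Sema3b-/-. The WT value was 0.01 with sex as a term, so its direction was not fixed.

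Lta4h (chromosome 10, 93453411 to 93484875, plus strand), which makes leukotriene B4, was at 431, 456, 390.3 and 359 normalized counts in WT control and at 466, 519, 559, 475 and 577 in WT arthritis. Those groups did not overlap. With Ptgs2 and Alox5ap it was the third of 9 genes higher in every WT arthritis library, where 5.82% of all genes tested were so, while none of the 9 was lower in every one (4.71% of all genes). Its log2 fold change of 0.34 (SE 0.15) did not pass the test (limma adjusted p = 0.188). In Sema3b-/- it was at 534, 563, 454 and 333 in control and at 654, 557, 557, 618 and 454 in arthritis, which overlapped (0.29, SE 0.15, limma adjusted p = 0.213). The mean effect, 0.32 (SE 0.11, limma adjusted p = 0.0373), passed the test. It did not with sex as a term (limma adjusted p = 0.0652), with TMM scaling (0.0506), without the 3 arthritis libraries whose titles do not begin with Joint (0.153), or without any 1 of 9 libraries: control replicate 3 or 4 of either genotype, WT arthritis replicate 3 or 5, or Sema3b-/- arthritis replicate 1, 2 or 4.

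Ltc4s (chromosome 11, 50236461 to 50238616, minus strand), which makes leukotriene C4, was at 136, 208, 132 and 169.7 normalized counts in WT control and at 197, 95.1, 72.4, 52.7 and 183 in WT arthritis. Of the WT arthritis libraries, replicates 1 and 5 were in the control range and the other 3 below it. In Sema3b-/- control it was at 202, 117, 119.9 and 74.4 and in Sema3b-/- arthritis at 73.9, 50.2, 39.2, 132 and 48.6, where replicate 4 alone was inside the control range. The log2 fold change was -0.58 (SE 0.40, limma adjusted p = 0.409) in WT, -0.94 (SE 0.40, limma adjusted p = 0.129) in Sema3b-/- and -0.76 (SE 0.28, limma adjusted p = 0.0587) for the mean effect. The last passed the test without any 1 of 4 libraries: Sema3b-/- control replicate 4, WT arthritis replicate 1 or 5, or Sema3b-/- arthritis replicate 4. Of the reads of Lta4h and Ltc4s, Lta4h gave 67.9% to 76.0% in WT controls and 70.3% to 90.0% in WT arthritis. For Sema3b-/- the shares were 72.5% to 82.8% and 82.4% to 93.4%, with 1 control library inside the range of the arthritis libraries. The gene overlaps the antisense gene Gm26542.

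Ltb4r1 (chromosome 14, 55765962 to 55768494, plus strand), the high-affinity receptor of leukotriene B4, was at 24.4 to 34.7 normalized counts in WT controls and 26.6 to 71.1 with arthritis. For Sema3b-/- the ranges were 12.1 to 72.6 and 45.1 to 97.6, so groups overlapped in both genotypes. The log2 fold change with arthritis was 0.55 (SE 0.44, limma adjusted p = 0.483) in WT and 0.75 (SE 0.44, limma adjusted p = 0.275) in Sema3b-/-. The shallowest library, Sema3b-/- control replicate 1, gave 3 reads, so the low value of 12.1 rests on these.

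**Figure D3:**
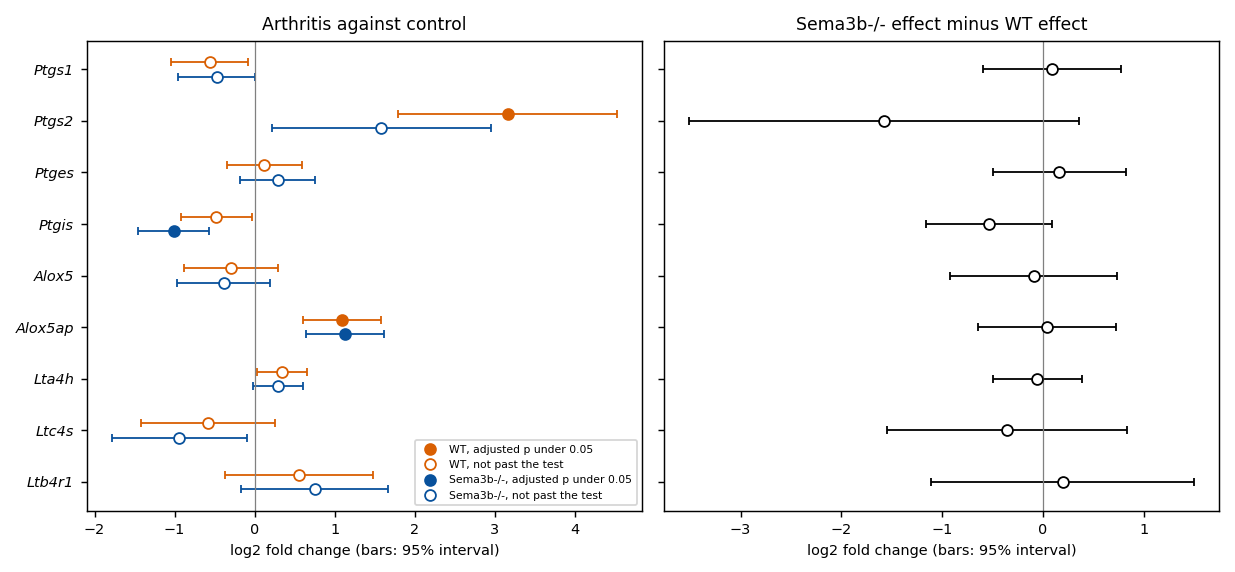
Log2 fold change with arthritis (left, WT in orange and Sema3b-/- in blue) and the Sema3b-/- effect minus the WT effect (right) for the 9 genes tested; bars are 95% intervals of the limma fit and filled points passed an adjusted p of 0.05. Alox5ap is filled in both genotypes, at 1.09 and 1.13, Ptgs2 in WT, at 3.16, and Ptgis in Sema3b-/-, at -1.01, and all intervals on the right include 0.

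The remaining comparisons asked whether loss of Sema3b changed these genes. Without arthritis, none of the 9 was called between Sema3b-/- and WT, where 0.0145% of all genes tested were (limma; 1 of the 9 had an unadjusted p under 0.05). That gene was Ptgs2, whose 3 highest Sema3b-/- control libraries, at 3.91 to 8.09 normalized counts, were above all 4 WT controls, at 0 to 2.21. The highest value of each group, 8.09 in Sema3b-/- control replicate 1 and 2.21 in WT control replicate 1, came from 2 reads. With 1 read at 4.05 normalized counts in the former and 1.11 in the latter, the gap between these libraries came from their size factors. Its log2 fold change was 1.48 (SE 0.69, 95% interval 0.04 to 2.92, limma adjusted p = 0.835), or 0.67 with 5 added, from 15 reads against 4. All WT controls were female, and the 2 female Sema3b-/- controls were at 8.09 and 1.20. With arthritis, none was called either, where 0.0217% of all genes were (limma; 1 of the 9 had an unadjusted p under 0.05). That gene was Ptgis, with means of 195 in Sema3b-/- and 262 in WT (log2 fold change -0.42, SE 0.20, limma adjusted p = 0.549). edgeR, which called 0.0145% of all genes without arthritis and 0.0217% with it, and DESeq2, which called 0.0362% and 0.666%, called none of the 9 in either comparison. The median log2 fold change of the 9 was 0.17 without and 0.06 with arthritis, beside -0.01 and 0.00 over all genes tested.

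The difference between the arthritis effects of the genotypes was called for none of the 9 genes, nor for any gene tested (0%; limma, with 663 of the 13809 and none of the 9 at an unadjusted p under 0.05; DESeq2 called 8 genes or 0.0579%, none of the 9, and edgeR 0 genes). It was -1.58 for Ptgs2 (95% interval -3.51 to 0.35; -0.83 with 5 added and -2.69 in DESeq2) and -0.53 for Ptgis (-1.16 to 0.09), the 2 genes called in a single genotype, so their effects were not shown to differ. For Alox5ap it was 0.04 (-0.65 to 0.73) and for Lta4h -0.06 (-0.50 to 0.38). The intervals of Ptgs2, Ptgis, Ltc4s and Ltb4r1 reach past 1 on the log2 scale in at least 1 direction, so for these 4 genes a genotype difference of that size lies within the error.

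The wider eicosanoid pathway was taken from a list of 55 genes, of which 53 are in the table and 48 were tested. In WT arthritis 2 of the 48 rose and none fell, where 2.64% of all genes tested were called higher and 1.58% lower. Ptger2, the EP2 receptor of prostaglandin E2, had a mean of 15.7 ± 13.3 normalized counts without (SD, n = 4) and 61.5 ± 30.5 with arthritis (SD, n = 5; log2 fold change 2.08, SE 0.46, limma adjusted p = 0.0173). Fpr2, a formyl peptide receptor that also binds lipoxin A4 and annexin A1, went from 88.9 ± 28.1 (SD, n = 4) to 382 ± 151 (SD, n = 5), with a log2 fold change of 1.98 and an SE of 0.47 (limma adjusted p = 0.0282). Next in p were Hpgds, the hematopoietic synthase of prostaglandin D2, at 0.93 (limma adjusted p = 0.0535), and the platelet-type lipoxygenase Alox12, at -1.29 (0.122). Both WT calls ended with sex as a term (limma adjusted p = 0.0817 for Ptger2 and 0.246 for Fpr2) and without the 3 arthritis libraries whose titles do not begin with Joint (0.0664 and 0.0776). The Ptger2 call also ended without any 1 of 4 libraries (WT arthritis replicate 4 and WT control replicates 1, 2 and 3), and that of Fpr2 without any 1 of 7 (WT arthritis replicates 3, 4 and 5 and all WT controls). For Sema3b-/- the means of Ptger2 were 47.4 ± 22.4 (SD, n = 4) without arthritis and 67.8 ± 12.5 (SD, n = 5) with it, an effect of 0.60 (SE 0.46, limma adjusted p = 0.406).

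In Sema3b-/- arthritis 6 of the 48 rose and 2 fell, where 6.84% of all genes tested were called higher and 5.55% lower. Of 7 genes of leukotriene synthesis and metabolism 2 rose (Ggt5 and Dpep2), and of 2 leukotriene receptors 1 rose (Cysltr1) and 1 fell (Ltb4r2). Ggt5, which turns leukotriene C4 into D4, was at 36.4, 49.2, 58.2 and 39.6 normalized counts in Sema3b-/- control and at 214, 158, 113, 141 and 170.2 in Sema3b-/- arthritis (log2 fold change 1.77, SE 0.30, limma adjusted p = 0.00207). Dpep2, a dipeptidase that turns leukotriene D4 into E4, was at 129, 67.6, 52.2 and 69.6 in control and at 152, 217, 164, 220.4 and 167 in arthritis (1.26, SE 0.28, limma adjusted p = 0.00925). Cysltr1, a receptor of the cysteinyl leukotrienes, was at 20.2, 24.0, 10.7 and 34.8 in control and at 38.9, 74.9, 71.4, 98.5 and 97.2 in arthritis (1.76, SE 0.34, limma adjusted p = 0.00393). None of these 3 genes overlapped between the Sema3b-/- groups, where 7.13% of all genes tested were higher in every arthritis library, and each stayed called whichever 1 library was left out. Ltc4s, which makes the leukotriene C4 that Ggt5 uses, had a log2 fold change of -0.94 in the same comparison, which did not pass the test. With the 3 arthritis libraries whose titles do not begin with Joint left out, Ggt5 and Cysltr1 were the only 2 of the 48 called (Dpep2, limma adjusted p = 0.0589).

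The other genes that rose in Sema3b-/- arthritis were Pla2g7, which inactivates platelet-activating factor (1.31, SE 0.34), the lysosomal phospholipase Pla2g15 (0.93, SE 0.25) and Ptges3, a cochaperone with prostaglandin E synthase activity (0.36, SE 0.11), with limma adjusted p from 0.0199 to 0.0337. Alox12 fell by 1.66 on the log2 scale (SE 0.46, limma adjusted p = 0.029). Ltb4r2, the low-affinity receptor of leukotriene B4, fell by 2.65 (SE 0.83, limma adjusted p = 0.0442), with 5, 29, 7 and 13 reads in controls and 0, 0, 19, 1 and 2 in arthritis, where replicate 3 alone reached the control level. That call was not made by edgeR (adjusted p = 0.248) or DESeq2 (0.216) and ended without any 1 of 13 libraries, all but WT arthritis replicates 1 to 4 and Sema3b-/- arthritis replicate 3. The call ended for Alox12 without any 1 of Sema3b-/- arthritis replicates 2, 3 and 5 and Sema3b-/- control replicates 1, 2 and 3. It ended for Pla2g7 without Sema3b-/- arthritis replicates 2 or 5 or control replicates 3 or 4, for Pla2g15 without arthritis replicate 2 or control replicate 4, and for Ptges3 without arthritis replicates 1, 2 or 4 or control replicates 2 or 3.

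For the mean effect 13 of the 48 rose and 2 fell (Alox12 and Ltb4r2), where 12.6% of all genes tested were called higher and 10.9% lower. The call of Ltb4r2 was not made by edgeR (adjusted p = 0.0679). Beside the genes above, the prostaglandin receptors Ptger4 (0.90, SE 0.25) and Ptgfr (0.69, SE 0.23), the synthase Hpgds (0.72, SE 0.19), the Alox5-binding protein Cotl1 (0.66, SE 0.18) and Cyp4f18, which inactivates leukotriene B4 in neutrophils (1.03, SE 0.27), rose, with limma adjusted p from 0.0106 to 0.0402. The call of Ptgfr ended without any 1 of 13 libraries, among them all 4 WT controls, and with sex as a term. Without the 3 arthritis libraries whose titles do not begin with Joint 9 of the 15 calls remained, and those of Ptger4, Ptgfr, Hpgds, Cotl1, Cyp4f18 and Ptges3 ended. By step, 3 of 6 prostanoid receptors, 4 of 7 genes of leukotriene synthesis and metabolism and 0 of 5 genes of prostanoid transport and degradation rose, beside the 12.6% of all genes. So did 2 of 10 phospholipases, 2 of 7 genes of prostanoid synthesis and 1 of 2 leukotriene receptors. For other lipoxygenases it was 0 of 6, and for lipoxin, resolvin and annexin signalling 1 of 5. Differences between steps were not tested. The median log2 fold change of the 48 was 0.12 in WT, 0.14 in Sema3b-/- and -0.06 for the mean effect. In the genotype comparisons and for the difference of effects, limma called none of the 48 (unadjusted p under 0.05 for 3 without arthritis, 9 with arthritis and 5 for the difference). The lowest p without arthritis was that of Pla2g2d, a secreted phospholipase, at 36.4 to 70.8 normalized counts in Sema3b-/- control and 98.5 to 126 in WT control (log2 fold change -1.16, SE 0.27, limma adjusted p = 0.491). It was followed by Ptger2 (1.74), the chaperone-like gene Ptges3l (1.02) and Cysltr1 (-0.67). With arthritis the lowest were Ggt5 (0.99, SE 0.29, limma adjusted p = 0.313), Dpep2 (0.85), Pla2g2d (-0.74) and Hpgd, which degrades prostaglandins (-0.51). For the difference they were Ggt5 (1.19), Cysltr1 (1.22), Ptger2 (-1.48) and Ptges3l (-0.93), each with a limma adjusted p of 0.974.

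**Figure D4:**
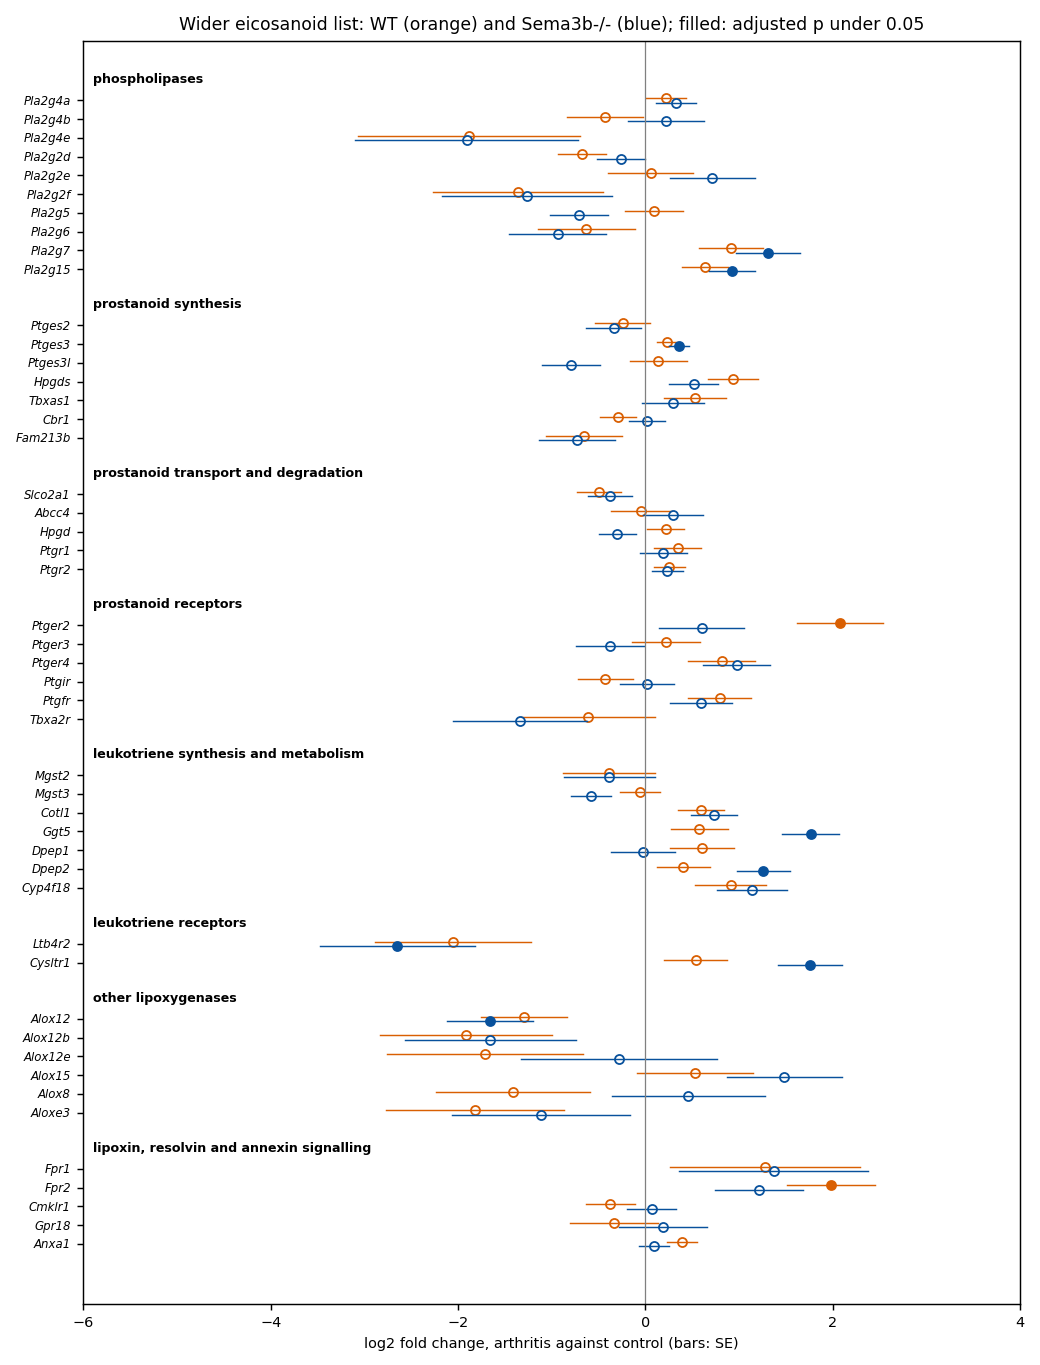
Log2 fold change with arthritis (horizontal axis) of the 48 tested genes of the wider eicosanoid list, by step of the pathway, in WT (orange) and Sema3b-/- (blue); bars are SE and filled points passed an adjusted p of 0.05. Ggt5, Dpep2 and Cysltr1 are filled at 1.77, 1.26 and 1.76 in Sema3b-/-, and Ptger2 and Fpr2 at 2.08 and 1.98 in WT.

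Markers of several cell types were also compared between groups, and the sums of some lists overlapped between controls and arthritis. Beside the counts of markers called below, 2.64% of all genes tested were called higher and 1.58% lower in WT arthritis. In Sema3b-/- arthritis these shares were 6.84% and 5.55%. The summed level of 12 monocyte and macrophage markers was 8285 to 10898 normalized counts in WT and 7445 to 11297 in Sema3b-/- controls. With arthritis it was 9387 to 24134 and 14765 to 23529, and 4 of the 12 rose in WT and 10 in Sema3b-/-. Alox5ap was lowest among arthritis libraries in WT replicates 1 and 2 and Sema3b-/- replicate 3, the same 3 libraries in which this sum was lowest. The sum of 11 neutrophil markers was 9531 to 14732 in WT and 10241 to 48983 in Sema3b-/- controls. With arthritis it was 7909 to 72906 and 12752 to 62831, and 1 of the 11 rose in each genotype. WT arthritis replicate 1, lowest in Ptgs2 among the arthritis libraries, was lowest in this sum too, while WT arthritis replicate 2, highest in the sum, was at 15.3 in Ptgs2. The sums of 9 mast cell markers (670.4 to 1541 over all controls and 1009.8 to 2244 over all arthritis libraries) and of 7 endothelial markers (1408 to 1915 and 1193 to 1849.9) overlapped between controls and arthritis. Of the mast cell markers 1 rose in WT and 3 in Sema3b-/-, and of the endothelial markers 0 were called in WT and 2 fell in Sema3b-/-. No marker on these lists was at 0 in all libraries of a group. The sum of 7 epidermal markers was 64474 to 339808 in the controls, and among arthritis libraries was as low as 2894 in WT replicate 3 and 3020.1 in Sema3b-/- replicate 2. The sum of 7 platelet markers was 4116 to 12693 in the controls and 2815 to 12849.6 in arthritis libraries, and 1 of the 7 fell in Sema3b-/-. WT arthritis replicate 2, the 1 WT arthritis library in which Ptgs1 and Alox12 stood at or above the control level, was the highest of its group in both the epidermal and the platelet sum. That library was also the highest of its group in the neutrophil sum, at 72906, and in the sum of skeletal muscle markers, at 119534, so it was not set apart by epidermal and platelet markers alone. The sum of 5 B cell markers was 885 to 1769 in WT control and 271 to 823 in WT arthritis, with no overlap, and 738 to 3762 and 133 to 1245 in Sema3b-/-. None of the 5 was called in WT and 2 fell in Sema3b-/-. The sum of 7 skeletal muscle markers was at least 58719 in controls and as low as 6294 in WT arthritis replicate 3 and 6793 in Sema3b-/- arthritis replicate 2, with no marker called in either genotype. The sum of 9 synovial fibroblast markers was 177489 to 210195 in WT and 89892 to 432348 in Sema3b-/- controls. With arthritis it was 83531 to 320280 and 101788 to 202246. Of these markers 0 were called in WT and 2 rose in Sema3b-/-. For the mean effect, 11 of the 12 monocyte and macrophage markers and 4 of the 11 neutrophil markers rose. Of the 7 epidermal and the 7 muscle markers 3 each fell, and of the 5 B cell markers 4 fell. Of the mast cell and of the fibroblast markers 2 each rose and 1 each fell, while 2 endothelial markers and 1 platelet marker fell. Among all genes tested 12.6% were called higher and 10.9% lower for this effect. The part of these markers in the results was not tested.

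After the genes most like each member were known, 10 markers of osteoblasts and osteocytes were added. Their sum was 5909 to 8508 normalized counts in WT and 2636 to 15824 in Sema3b-/- controls, and with arthritis 3991 to 10498 and 4094 to 8349.6. Sema3b-/- control replicate 4, where Ptgis was at 215, was lowest in this sum, and Sema3b-/- control replicates 2 and 3, where Ptgis was at 504 and 505, were the 2 highest. Other groups went the other way. Of the WT controls, replicate 4 was lowest in the sum and highest in Ptgis, at 427. WT control replicate 1 was highest of its group in the sum and lowest in Ptgis, at 317. Of the Sema3b-/- arthritis libraries, replicate 4 was lowest in the sum and highest in Ptgis, at 223. The sum of 7 cartilage markers, also added then, was 6478 to 10551 in WT and 3497 to 18177 in Sema3b-/- controls. With arthritis it was 1973 to 7617 and 1278 to 3143, with no overlap in Sema3b-/-. Their part in the results was not tested.

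**Figure D5:**
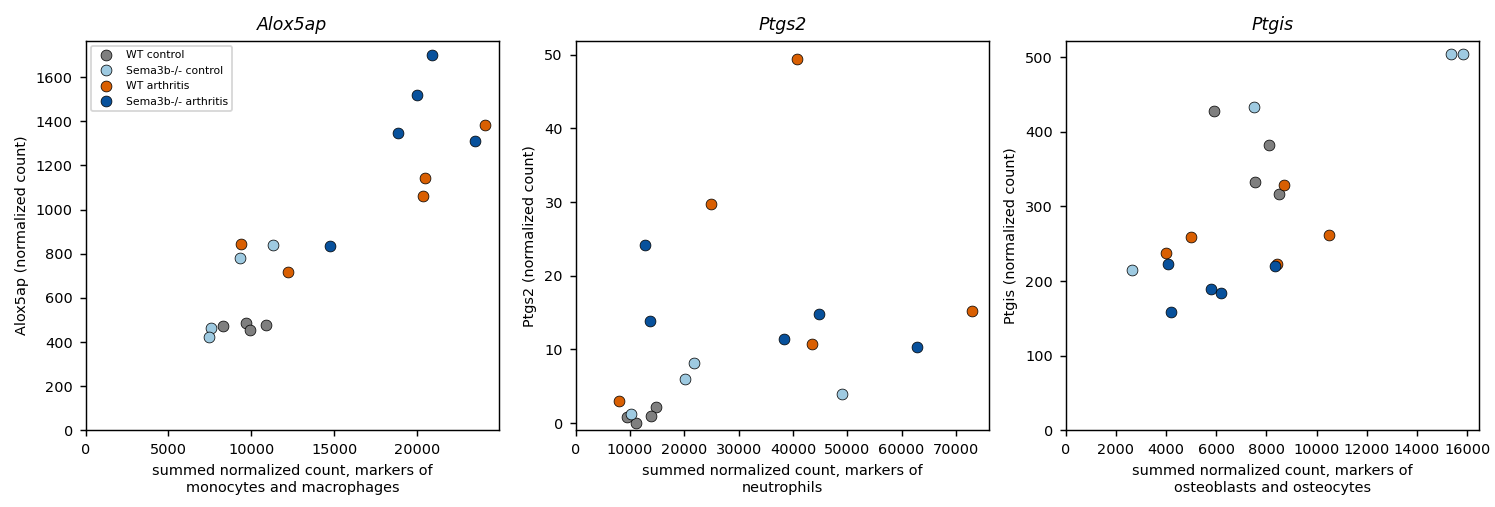
Normalized count of Alox5ap, Ptgs2 and Ptgis (vertical axes) against the summed normalized count of markers of monocytes and macrophages, neutrophils, and osteoblasts and osteocytes (horizontal axes) in the 18 libraries, coloured by group. The 4 libraries of WT control lie at 454 to 488 for Alox5ap with a marker sum of 8285 to 10898, and the 2 Sema3b-/- controls with the highest bone marker sums lie at 504 and 505 for Ptgis. The WT control with the lowest bone marker sum of its group has the highest Ptgis of that group, 427.

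The genes whose levels followed each member most closely over the 18 libraries were found by Pearson's r of log2 values, as a description. The 18 values share 4 groups and the same scaling, so r within the 10 arthritis libraries is given second. Alox5ap was closest to the leukocyte genes Cd52 (0.97 and 0.92), Lcp1 (0.96 and 0.91) and Ccl9 (0.96 and 0.88). Ptgis was close to Phex (0.93 and 0.77), a peptidase of bone-forming cells, and the osteocalcin gene Bglap2 (0.92 and 0.64). Ltc4s was closest to 2210407C18Rik (0.91 and 0.91), the cartilage gene Chad (0.87 and 0.92) and Mfi2 (0.87 and 0.82). For Lta4h they were A530064D06Rik (0.88 and 0.63), the phagocyte oxidase subunit Cybb (0.87 and 0.87) and Gapt (0.86 and 0.88).

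For Alox5 the closest were the platelet receptor gene Treml1 (0.81 and 0.82), the osteocyte gene Sost (0.78 and 0.87) and Arrb1 (0.78 and 0.86), and for Ptgs1 they were Srd5a1 (0.91 and 0.89), Ufsp1 (0.89 and 0.86) and Wnt7b (0.88 and 0.88). Ptgs2 was closest to the survival gene Mcl1 (0.87 and 0.76), Ift20 (0.87 and 0.81) and the cytokine gene Tnfsf15 (0.87 and 0.84). Ptges was closest to the oncostatin M receptor Osmr (0.78 and 0.73), Acvr2a (0.75 and 0.38) and Ppp4r2 (0.74 and 0.71), and Ltb4r1 to U2af1 (0.82 and 0.73), Kat5 (0.81 and 0.63) and Kif22 (0.80 and 0.69). Among the members themselves, Alox5 and Ltc4s (0.76 over both 18 and 10 libraries) and Ptgis and Ltc4s (0.71 and 0.77) varied together. Alox5ap and Lta4h had an r of 0.77 over all libraries and 0.37 within arthritis, and Alox5ap and Alox5 an r of -0.23 and 0.07.

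In the authors' deposited table, Alox5ap passed an adjusted p of 0.05 in WT arthritis against WT control (log2 fold change 1.13, adjusted p = 0.024) and in Sema3b-/- arthritis against Sema3b-/- control (1.11, adjusted p = 0.0197). Ptgis passed it in the latter (-1.08, adjusted p = 0.0142). For Ptgs2 in WT the authors' deposited table gives a log2 fold change of 4.50 and no adjusted p. None of the 10 genes passed in either genotype comparison of the authors' deposited table.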

How the data were processed

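Forepaw RNA of 18 libraries was sequenced by CEL-seq with paired ends on a NextSeq500, per the labels' protocols. The build mm10 and the tools BWA and DESeq2 1.32 are named in the submitters' processing notes. The counting tool, annotation, strand setting and any use of molecular barcodes were not given in the sources used here.

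Deposited by the authors was a table that holds a signal per gene and library that is a read count after division by the size factor of the library, called normalized count. Dividing by the value of 1 read gave whole numbers within 0.02 of a read for 100% of values. The deposited table also holds the authors' log2 fold changes, p-values, scores and adjusted p-values.

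Limma-trend with robust empirical Bayes (limma 3.58.1, R 4.3.3) was fitted to log2 of the value plus 1, with 4 group means, and p-values were adjusted by Benjamini-Hochberg over all genes tested. Alternatives were edgeR 4.0.16 and DESeq2 1.42.0 on recovered reads, TMM scaling, a pseudocount of 5, no filter, a filter at 50, sex as a term, the replicate number as a block, arthritis libraries whose titles begin with Joint only, and leaving out each library. The fit was tested on simulated data in which all genes and groups had the same spread beyond counting error and sex had no effect. That test therefore does not cover unequal spread between groups or the imbalance of sex in these libraries. Errors are SD for levels and SE for log2 fold changes. The 32 pairs of libraries within groups all differed by more than sampling noise, with a chi-square of 9.59 to 197 per degree of freedom. One Sema3b-/- arthritis column (replicate 5) ends in Ct, while its title and treatment label say arthritis, and was used as arthritis.

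The members, the wider list and the marker lists were chosen with earlier results of these data known. All members were named. From the wider list, genes called in any comparison were named, or the 4 with the lowest p where fewer than 4 were called, and the 3 genes most like each member by Pearson's r, of which 1 is not reported here. Akr1b3 and Ptgdr2 were not matched, and Prxl2b was read as Fam213b. A count of 0 allows up to 3 reads.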

Additional observations from a re-analysis of the deposited data

Results flagged for a closer look

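Ptgds in Sema3b-/- arthritis replicate 1, at 10.4 normalized counts (8 reads), lay apart from the other 4 libraries of its group, at 0 to 1.39. It was the 1 such value among 40 sets of a gene and a group, where about 1 in 20 sets would be marked by chance.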

How the results depend on the processing

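Of 1452 alternative values of the 54 log2 fold changes of members, 1371 kept their direction and their side of the threshold. Of the rest, 30 lost a call, 5 gained one and 46 reversed. Only log2 fold changes called in the main limma fit had a call to lose. These were 2 in WT arthritis, 2 in Sema3b-/- arthritis and 5 for the mean effect. The 30 lost calls are therefore not a share of all 1452 values. The cause of the changes was not tested.

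With sex as a term, 133 genes were called in WT arthritis, with 0 of the 9 members and 0 of the 48 pathway genes, 0 genes between control genotypes, and 3 members for the mean effect. The log2 fold change then reversed for Alox5 in WT arthritis (0.0077), for Ptges (0.094) between controls, for Ptgs2 (0.45) and Ptges (-0.19) between arthritis genotypes, and for the difference of effects of Ptgs1 (-0.097) and Ptges (-0.28). Without the 3 arthritis libraries whose titles do not begin with Joint, 232 genes, 1 member and 0 pathway genes were called in WT arthritis, 396, 1 and 2 in Sema3b-/- arthritis, 1951, 3 and 9 for the mean effect, and 0 genes between arthritis genotypes, where Ptgs2 (0.025) and Ptges (-0.080) reversed. DESeq2 called 1279 genes and 4 pathway genes in WT arthritis, 5 and 92 genes between control and arthritis genotypes, and 8 for the difference of effects. Reversed differences of effects were those of Alox5ap (-0.019 in edgeR and in DESeq2) and Ltb4r1 (-0.21 and -0.20). The filter at 50 left 1 member called in WT arthritis, since Ptgs2 was not tested, and 0 genes between controls, where no filter gave 1.

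Replicate numbers are shared across groups but name no shared animal or batch: 3 of 18 libraries were closest to their own number, and 7 of 25 same-number pairs had a correlation of deviations over 0.1 (-0.66 to 0.41). With the replicate block, 196 genes, 1 member and 1 pathway gene were called in WT arthritis, 1020 genes and 4 pathway genes in Sema3b-/- arthritis, 1 gene between controls and 3 members for the mean effect. It ended the calls of Alox5ap in WT arthritis (1.06, limma adjusted p = 0.0591) and, for the mean effect, of Ptgs1 (0.0973) and Lta4h (0.055).

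With each library left out in turn, genes called ranged from 149 (without WT control replicate 3) to 1111 (without WT arthritis replicate 2) in WT arthritis, with 0 to 3 members and 0 to 6 pathway genes. They ranged from 978 to 1913 in Sema3b-/- arthritis, with 3 to 11 pathway genes, from 0 to 3 between controls and from 2 to 6 between arthritis genotypes, with 3 to 6 members for the mean effect. Log2 fold changes that reversed without a library ranged, between controls, from -0.28 to 0.086 for Ptges, -0.0069 to 0.40 for Ptgis and -0.075 to 0.17 for Alox5, and between arthritis genotypes from -0.61 to 0.31 for Ptgs2, -0.047 to 0.13 for Ptges and -0.20 to 0.14 for Alox5. Differences of effects that reversed ranged from -0.019 to 0.29 for Ptgs1, -0.030 to 0.34 for Ptges, -0.27 to 0.068 for Alox5, -0.13 to 0.20 for Alox5ap, -0.21 to 0.038 for Lta4h and -0.30 to 0.53 for Ltb4r1.

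Depth limits what can be said of Ptgs2: 3 reads are 12.1 normalized counts in the shallowest library, above every Ptgs2 control value.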
